A study of Mus musculus with 146 samples.

Results

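Amygdala RNA of male mice exposed to ethanol vapor is compared here with that of males kept in air, a set of 18 of the 146 samples of the series. The samples were taken by their titles, which mark sex, chamber and region: 8 came from males of the vapor chambers and 10 from males of the air chambers. In the study, C57BL/6J mice first drank from 2 bottles, 1 with 15% ethanol and 1 with water, for 20 days, and were then divided into chronic intermittent ethanol (CIE) and Air groups. CIE mice received 1.75 g/kg ethanol with 68.1 mg/kg pyrazole and then vapor for 16 h a day on 4 days, followed by 72 h of rest and 5 days of drinking, while Air mice received pyrazole and breathed air. This cycle was run 4 times, a final 4 days of vapor or air followed, and tissue was taken 1 week later. Brain and blood of the same animals were sequenced by TagSeq, which reads the 3' ends of messenger RNA. All 18 mice here had therefore drunk ethanol, and what separates the groups is the vapor and the ethanol injection.

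Repeated cycles of vapor and withdrawal raise drinking in this strain, and the model is widely used for alcohol dependence. The amygdala is a region where withdrawal, stress peptides and the drive to drink meet, and glucocorticoid signaling and the heat shock and unfolded protein responses are among the systems that ethanol engages in brain. The comparison asks which amygdala transcripts differed in males after CIE, across all genes, and what is left of the difference once samples that hold liver transcripts are set aside.

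The labels fit the contents. Ddx3y, from the Y chromosome, ran from 81.0 to 104 CPM (counts-per-million of gene reads) in CIE and from 81.1 to 129 CPM in Air, and Eif2s3y, Kdm5d and Uty were found in every sample. The synaptic gene Snap25 stood at 1942 ± 113 CPM in CIE (mean ± SD, n = 8) and 2002 ± 107 CPM in Air (n = 10). Xist, which is made from the inactive X chromosome of females, was 0.329 to 9.18 CPM in CIE and 0.407 to 4.80 CPM in Air, beside 203 to 271 CPM in the amygdala of females. Reads on genes numbered 2212548 to 4013664 per CIE sample (median 2913754) and 2290843 to 3556545 per Air sample (median 2760790). The tissue was taken by micropunch and measured in bulk, so fewer cells of a type cannot be told from less RNA per cell.

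Liver transcripts set 4 CIE samples apart. Alb, the gene of serum albumin, stood at 117, 217, 82.2 and 95.2 CPM in CIE 1, 2, 3 and 4, and at no more than 4.43 CPM in the other 14 samples. Of the 30 liver genes other than Alb, 27 were higher in each of these 4 samples than in any other; with Alb, 5 of 31 passed the filter and were tested. Ahsg reached 47.3 to 119 CPM in the 4 samples against at most 3.06 CPM elsewhere, Apoa2 27.9 to 76.8 against at most 2.98 CPM, and Mup3 26.7 to 68.2 against at most 1.43 CPM. Serpina3k had no reads in any sample. The 3 liver genes that did not follow were Serpina3k, Mup20 and Ttr. The same 4 mice also had high Alb in hypothalamus (166, 99.1, 118 and 124 CPM) and in prefrontal cortex (131, 134, 102 and 121 CPM), while their blood had no Alb reads. Where these transcripts came from was not tested.

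**Figure D1:**
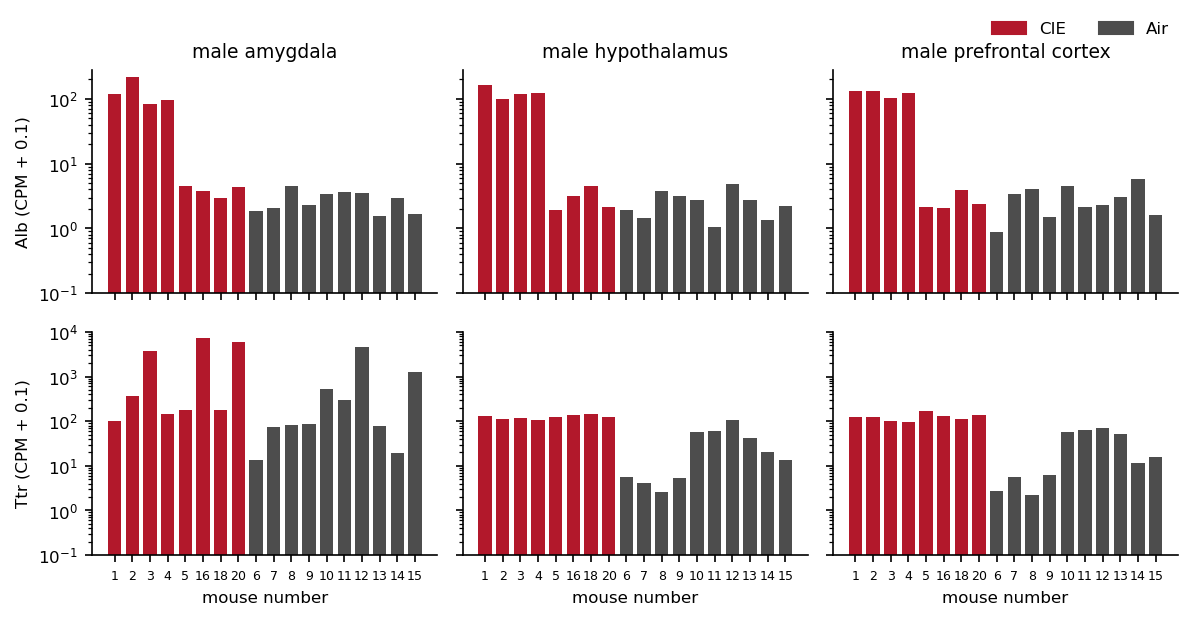
Alb and Ttr in each male mouse, in CPM with 0.1 added, on a log axis, in amygdala, hypothalamus and prefrontal cortex. CIE mice are red and Air mice gray. Alb was high in CIE 1 to 4 in all 3 regions; Ttr was above 1000 CPM in 5 amygdala samples.

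A second group of samples had high markers of choroid plexus, the ventricular tissue that secretes cerebrospinal fluid. Ttr, the most abundant of them, was 3792, 7316 and 5868 CPM in CIE 3, 16 and 20 and 4608 and 1283 CPM in Air 12 and 15, and at most 525 CPM in the other 13 samples. Among these 13 it was 103 to 373 CPM in CIE and 13.1 to 525 CPM in Air. Only Air 10 and 11 of that set were above 86.0 CPM in Air. The 12 choroid plexus genes summed to 290 to 10012 CPM in CIE (median 486) and 188 to 6404 CPM in Air (median 316). All 8 of the choroid plexus genes tested were higher in CIE, with a median log2 fold change of 1.25, and 4 of the 8 had an unadjusted p under 0.05. The groups overlapped for each of these markers.

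With all 18 samples, no gene passed the threshold by edgeR under the main filter. Without a filter on low counts edgeR called 114 genes, 111 higher and 3 lower, of which 100 are too scarce for the main filter. A Benjamini-Hochberg adjusted p depends on all genes of a fit, and many scarce genes of small p can lower it for others. The adjusted p given below from the fit without a filter are therefore not separate support for a gene. Leaving out CIE 5, 16, 18 or 20 under the main filter gave 1 or 2 genes, with Alb among them each time. These are the CIE samples without high Alb, so leaving any of them out raises the share of CIE samples with liver transcripts. The largest log2 fold changes between the amygdala of CIE and Air males were those of liver genes. Several gene lists had most of the genes tested on one side: lower in CIE for 20 of 23 protein folding, 15 of 19 glucocorticoid response and 15 of 16 oligodendrocyte genes, and higher for 22 of 24 interferon and antigen presentation, 8 of 8 mitochondrially encoded, 13 of 13 striatal and 8 of 8 choroid plexus genes. Whether a list differed as a whole was not tested. By the edgeR quasi-likelihood test, 0 of 12938 genes (0%) had a Benjamini-Hochberg adjusted p under 0.05, and the smallest was 0.101, for Alb. At an unadjusted p under 0.05 there were 568 higher (4.39%) and 598 lower genes (4.62%). This balance depends on the settings: by edgeR the counts were 413 higher and 892 lower with no scaling beyond library size, and 1343 and 843 without a filter on low counts. DESeq2 called 10 higher (0.0773%) and 3 lower genes (0.0232%), and limma voom on the same counts called 0. The median log2 fold change over all genes was 0.00, and 6351 of the 12938 were higher in CIE. No gene had every CIE sample above every Air sample (0%), and 1 gene, Kcnc4, had every CIE sample below every Air sample (0.00773%).

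**Figure D2:**
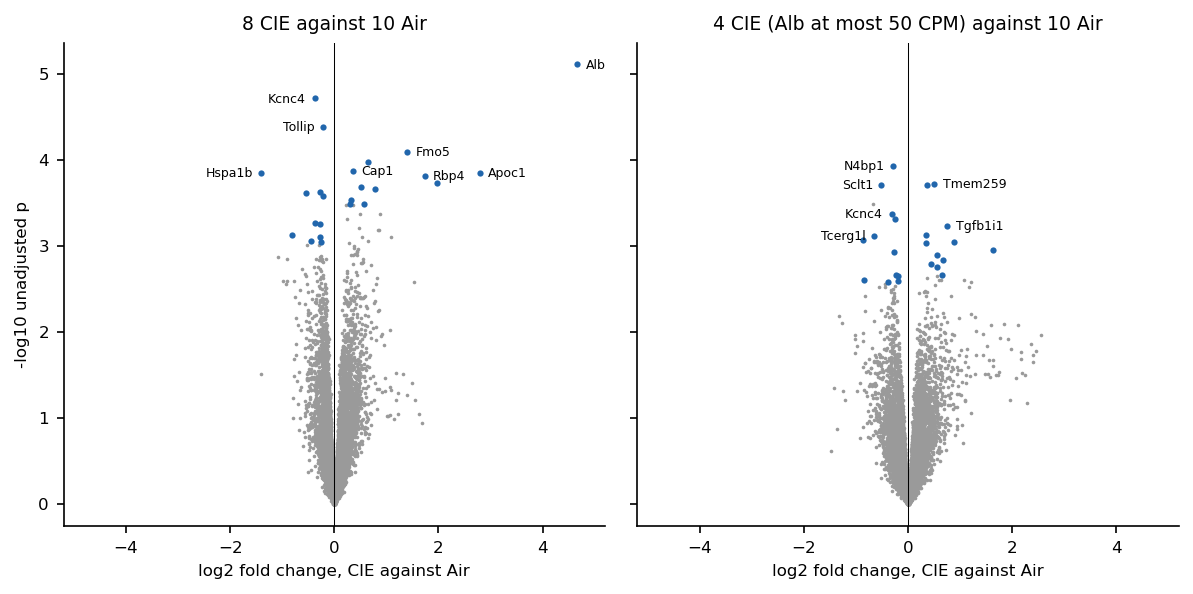
Log2 fold change and unadjusted p of each gene tested, CIE against Air in male amygdala, with all 8 CIE samples (left) and with the 4 CIE samples at or under 50 CPM of Alb (right). Blue marks the 12 named genes of smallest p in each direction; none passed the adjusted threshold.

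Kcnc4 encodes a fast voltage-gated potassium channel that helps neurons fire at high rates. Its lowest, median and highest values were 62.8, 80.2 and 90.9 CPM in CIE and 94.3, 104 and 126 CPM in Air. Every CIE mouse was therefore below every Air mouse, with CIE 3 the lowest. Tollip, an adaptor that dampens interleukin-1 and Toll-like receptor signaling, ran from 117 to 132 CPM in CIE (median 120) and from 129 to 158 CPM in Air (median 145). Only CIE 2 reached into the Air range, and 7 of the 8 CIE mice were below all of Air. The log2 fold changes were -0.38 (SE 0.07) for Kcnc4 and -0.22 (SE 0.04) for Tollip. Neither passed the edgeR quasi-likelihood test (Benjamini-Hochberg adjusted p 0.125 and 0.178), while DESeq2 gave adjusted p of 0.00320 and 0.0102, and edgeR without a filter on low counts 0.00879 and 0.0362.

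Other genes of small p had lower values in CIE, and none passed the threshold. Iars, which charges transfer RNA with isoleucine, was 49.3 ± 2.91 CPM in CIE (n = 8) and 60.5 ± 6.33 CPM in Air (n = 10); the ribonuclease gene N4bp1 was 89.6 ± 7.71 and 106 ± 5.19 CPM; and Sh2b2, an adaptor of insulin signaling, was 8.34 ± 1.31 and 12.3 ± 2.18 CPM. Log2 fold changes were -0.27 for Iars, -0.22 for N4bp1 and -0.55 for Sh2b2. Lin52 (-0.37), Disp2 (-0.28), Fgf9 (-0.28), Inpp1 (-0.26) and the zinc finger gene Zfp867 (-0.81) completed the lower genes of smallest p together with Hspa1b and Tsc22d3. All 8 CIE mice were below the Air median for each of these genes except Inpp1, for which 7 of 8 were. Adjusted p by the edgeR quasi-likelihood test with Benjamini-Hochberg correction was 0.219 for Iars, N4bp1 and Sh2b2, 0.285 for Lin52 and Disp2, 0.323 for Zfp867 and Fgf9, and 0.327 for Inpp1.

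Higher genes outside the liver list included Fmo5, given with the liver samples below, Lamtor3, a scaffold of the lysosomal complex that activates mTORC1, and Cap1, which recycles actin. Lamtor3 was 14.6 ± 2.57 CPM in CIE (n = 8) and 9.43 ± 2.09 CPM in Air (n = 10), and Cap1 54.5 ± 6.67 and 43.2 ± 3.67 CPM. For both genes 6 of the 8 CIE mice were above all of Air. The cell cycle factor E2f2 was 47.5 ± 13.2 CPM in CIE and 33.4 ± 3.36 CPM in Air, with CIE 2 at 78.6 CPM far above the rest. The DNA repair gene Brca2 (log2 fold change 0.79), the glycine-cleaving enzyme gene Gldc (0.57), the co-chaperone gene Dnajc7 (0.30), Lamtor3 (0.66), Cap1 (0.36) and E2f2 (0.52) all had an adjusted p of 0.219 by the edgeR quasi-likelihood test with Benjamini-Hochberg correction. DESeq2 gave adjusted p of 0.0258 for Lamtor3, 0.0359 for E2f2, 0.0361 for Cap1 and 0.0489 for Gldc, and edgeR without a filter gave 0.0302, 0.0222, 0.0302 and 0.0429. For Brca2, Gldc, Dnajc7, Lamtor3 and E2f2 all 8 CIE mice were above the Air median.

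Part of the higher genes tracked the liver samples. Apoc1 averaged 46.7 CPM in CIE 1 to 4 and 3.09 CPM in the other 4 CIE samples, beside 3.55 CPM in Air. Apoa1 averaged 59.0, 8.66 and 8.64 CPM in the same order, Rbp4 38.6, 8.93 and 7.22 CPM, and the xenobiotic enzyme gene Fmo5 13.1, 5.06 and 3.50 CPM. The glutathione transferase gene Mgst1 averaged 55.4, 20.3 and 18.1 CPM and the fatty acid enzyme gene Acsl1 70.7, 56.8 and 51.7 CPM. Log2 fold changes with all samples were 4.67 for Alb, 2.79 for Apoc1, 1.97 for Apoa1, 1.73 for Rbp4, 1.40 for Fmo5, 1.08 for Mgst1 and 0.33 for Acsl1. Of these, DESeq2 called Alb, Apoc1, Apoa1, Rbp4 and Fmo5.

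The heat shock genes Hspa1b, Hspa1a and Dnajb1 had lower medians in CIE, with uneven values in Air. None passed the threshold by the main edgeR fit. Hspa1b, an inducible HSP70 gene, had lowest, median and highest values of 7.23, 14.7 and 20.4 CPM in CIE and 14.6, 43.5 and 62.3 CPM in Air. Of the 10 Air mice, 7 were above all of CIE; Air 6, 7, 9, 10, 12 and 13 held 35.2 to 62.3 CPM, while Air 8, 11, 14 and 15 held 14.6 to 21.6 CPM, and Air 8, 11 and 14 lay within the CIE range. Its twin Hspa1a was 11.8, 15.2 and 26.7 CPM in CIE and 13.5, 29.1 and 57.6 CPM in Air, and the HSP40 gene Dnajb1 73.4, 84.7 and 98.9 CPM in CIE and 89.0, 101 and 156 CPM in Air. For Hspa1a the same 6 Air mice were above all of CIE, and for Dnajb1 it was 5 of these 6. The log2 fold changes were -1.41 (SE 0.30) for Hspa1b, -0.93 (SE 0.27) for Hspa1a and -0.33 (SE 0.10) for Dnajb1. By the edgeR quasi-likelihood test the Benjamini-Hochberg adjusted p was 0.219 for Hspa1b and 0.357 for Hspa1a and Dnajb1, and for Hspa1b DESeq2 gave 0.0258 and edgeR without a filter 0.0106. Hspa1a and Hspa1b are nearly identical in sequence, and how reads that match both were assigned is not stated.

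The 6 Air mice with the highest Hspa1b were the same animals in amygdala, hypothalamus and prefrontal cortex. This did not hold in blood, where Hspa1b was 11.6 CPM in Air 12 and 9.52 CPM in Air 13, below the 27.1 CPM of Air 8 and the 15.5 CPM of Air 15. In hypothalamus Hspa1b was 6.05 to 18.1 CPM in CIE and 18.0 to 82.7 CPM in Air, and in prefrontal cortex 13.3 to 23.6 and 20.9 to 68.1 CPM. In the amygdala of females it was 4.59 to 21.1 CPM in CIE and 7.43 to 16.6 CPM in Air, with no high Air mice.

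**Figure D3:**
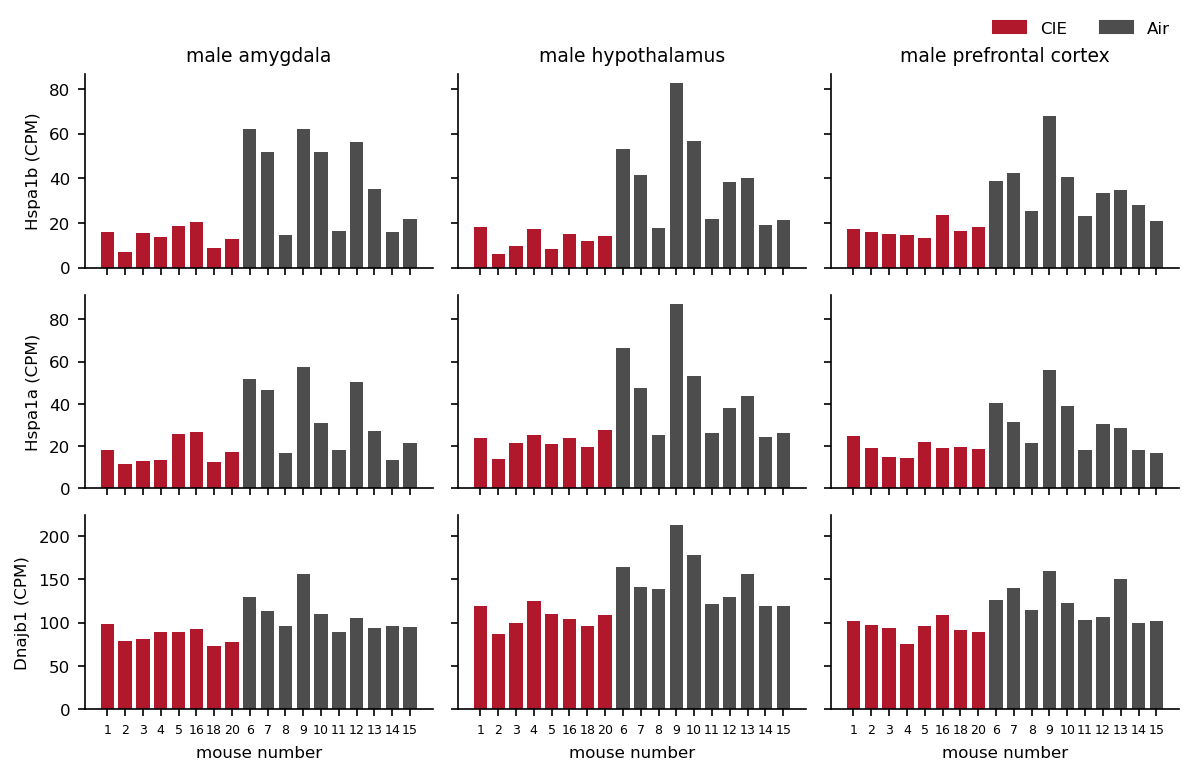
Hspa1b, Hspa1a and Dnajb1 in each male mouse in 3 brain regions, in CPM. Air 6, 7, 9, 10, 12 and 13 had the 6 highest Hspa1b values of the Air group in each region.

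The promoters of Hspa1b and Hspa1a each hold 1 exact copy of GAANNTTC, a short form of the heat shock element. This motif reads the same on both strands and is present in 7.86% of 32851 promoters. The 2 promoters of Dnajb1 hold 0 exact copies and that of Hspb1 holds 2. Imperfect or longer forms of the element were not searched for. Only the pair with the largest fold changes among them is shown. The sequences below are from RefSeq, build GRCm38.p6, minus strand, with the motif in capitals. Hspa1b spans chr17:34959189-34959488 and Hspa1a chr17:34972107-34972406.

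Hspa1b promoter: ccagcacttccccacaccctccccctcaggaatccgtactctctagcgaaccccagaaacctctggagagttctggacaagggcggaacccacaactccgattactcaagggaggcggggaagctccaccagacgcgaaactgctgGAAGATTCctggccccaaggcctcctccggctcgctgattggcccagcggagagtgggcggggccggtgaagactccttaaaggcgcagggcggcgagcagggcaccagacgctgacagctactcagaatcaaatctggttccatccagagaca

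Hspa1a promoter: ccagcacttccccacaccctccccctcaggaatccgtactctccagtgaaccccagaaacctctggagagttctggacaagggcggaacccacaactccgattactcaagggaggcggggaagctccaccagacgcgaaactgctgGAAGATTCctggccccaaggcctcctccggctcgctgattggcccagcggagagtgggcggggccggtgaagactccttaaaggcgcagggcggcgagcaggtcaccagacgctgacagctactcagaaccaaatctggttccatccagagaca

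Among protein folding genes, several that act in the endoplasmic reticulum had lower values in CIE. Creld2 was 12.9 ± 2.99 CPM in CIE (n = 8) and 18.6 ± 3.46 CPM in Air (n = 10), Manf 72.8 ± 11.0 and 90.2 ± 11.6 CPM, Sdf2l1 16.6 ± 3.37 and 23.7 ± 6.82 CPM, and the HSP70 of that compartment, Hspa5, 293 ± 31.4 and 334 ± 31.4 CPM. All 8 CIE mice were below the Air median for Creld2 and Sdf2l1, and 7 of 8 for Manf and Hspa5. The log2 fold changes were -0.52, -0.28, -0.50 and -0.16. Of the 23 protein folding genes tested, 20 were lower in CIE, with a median log2 fold change of -0.15, beside 0.00 over all genes. An unadjusted p under 0.05 came from 10 of the 23, each of them lower, beside 4.62% lower over all genes. None passed the adjusted threshold. The list summed to 2685 to 2964 CPM in Air 6, 7, 9, 10, 12 and 13, the mice of highest Hspa1b, to 2416 to 2607 CPM in the other 4 Air mice and to 2320 to 2634 CPM in CIE. Hspa1b is itself on the list, so part of the separation within Air is set by that choice of mice. Hspa8, the constitutive member, was among the 3 that were higher (0.10).

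Most of the glucocorticoid-responsive genes tested had lower values in CIE, and none passed the threshold. Tsc22d3, whose product carries part of the anti-inflammatory effect of glucocorticoids, was 68.4 to 119 CPM in CIE (median 88.7) and 87.5 to 170 CPM in Air (median 131). The lipid droplet gene Plin4 was 2.55 to 10.2 CPM in CIE (median 6.65) and 6.11 to 32.9 CPM in Air (median 12.3). All 8 CIE mice were below the Air median for both, and the groups overlapped. Tsc22d3 was 130 to 170 CPM in the 6 Air mice of highest Hspa1b and 87.5 to 119 CPM in the other 4. The log2 fold changes were -0.45 (SE 0.12) and -1.08 (SE 0.29), both with an adjusted p of 0.327 by the edgeR quasi-likelihood test with Benjamini-Hochberg correction. Nfkbia (-0.35), Zbtb16 (-0.35), Sgk1 (-0.36) and Fkbp5 (-0.16), which encodes a co-chaperone of the receptor, had lower values in CIE, and the metallothionein genes Mt1 (0.14) and Mt2 (0.24) had higher values. Among the 19 genes of this list that were tested, 15 were lower and the median was -0.10. At an unadjusted p under 0.05 there were 5 lower genes and 1 higher gene, beside 4.62% and 4.39% of all genes.

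Antigen presentation and interferon-responsive genes ran the other way. B2m, the light chain of class I molecules, was 80.3 to 159 CPM in CIE (median 114) and 81.1 to 105 CPM in Air (median 93.6), with 5 of 8 CIE mice above all of Air and CIE 18 below all of Air. H2-K1 was 45.8 ± 13.4 CPM in CIE (n = 8) and 35.1 ± 6.42 CPM in Air (n = 10), H2-D1 50.2 ± 10.5 and 40.4 ± 9.06 CPM, and Ifit3 11.1 ± 4.22 and 8.11 ± 1.81 CPM. Log2 fold changes were 0.31, 0.40, 0.33 and 0.44. Of 24 genes tested, 22 were higher in CIE and the median was 0.34. An unadjusted p under 0.05 came from 9 of the 24, all higher, beside 4.39% higher over all genes. In the repeat without the liver samples 19 of 26 genes were higher, with a median of 0.18. With the liver list as covariate the log2 fold changes of B2m and H2-K1 were 0.13 and 0.11. The whole list summed to 454 to 941 CPM in CIE and 487 to 594 CPM in Air, highest in CIE 2. The complement genes C4b (0.81) and Serping1 (0.75) and the copper carrier gene Cp (0.58) also had higher values, in a list of 9 acute phase and complement genes of which 5 were higher and 4 lower, with a median of 0.13; in the repeat without the liver samples it was -0.01, with 5 higher and 5 lower.

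Among mitochondrially encoded genes, all 8 tested were higher in CIE, with a median of 0.12. The complex I gene mt-Nd5 was 3460 ± 270 CPM in CIE (n = 8) and 3007 ± 209 CPM in Air (n = 10), above the Air median in all 8 CIE mice, with a log2 fold change of 0.23 and an adjusted p of 0.219 by the edgeR quasi-likelihood test with Benjamini-Hochberg correction and of 0.0258 by DESeq2. Nuclear oxidative phosphorylation genes had a median of 0.00 (84 genes, 6 higher and 3 lower at an unadjusted p under 0.05). Cytosolic ribosome genes had 0.02 (65 genes, 3 and 2). Over all genes the shares at that p were 4.39% higher and 4.62% lower. Among enzymes of ethanol breakdown, Aldh2 was 29.5 ± 5.99 and 22.4 ± 3.80 CPM (log2 fold change 0.42) and Cat 97.4 ± 22.6 and 75.7 ± 6.72 CPM (0.38), while the 22 genes of the ethanol metabolism and antioxidant list had a median of 0.04.

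Genes of neurotransmission had medians near that of all genes. For the counts that follow, 4.39% of all genes were higher and 4.62% lower at an unadjusted p under 0.05. The 36 glutamate genes had a median of 0.02 with 0 at an unadjusted p under 0.05, the 26 ion channel genes 0.01 with 0, the 22 GABA genes -0.04 with 2 lower, and the 26 monoamine and cannabinoid genes 0.01 with 3 higher and 2 lower. Under edgeR with no scaling beyond library size the medians of the ion channel, monoamine, ribosome and oxidative phosphorylation lists were -0.01, -0.01, 0.00 and -0.02. The nicotinic subunit gene Chrnb2 was 43.1 ± 4.67 CPM in CIE (n = 8) and 51.5 ± 5.54 CPM in Air (n = 10; log2 fold change -0.23). Of 38 neuropeptide and stress genes, with a median of -0.01, Mchr1 (0.40), Vip (0.43) and Hcrt (0.90) had higher values at an unadjusted p under 0.05. Npy2r (-0.44) and Adcyap1r1 (-0.17) had lower values at that p, and Crh (0.19), Npy (0.14) and Pdyn (0.32) did not reach it. Hcrt is also on the list of hypothalamus markers. The 21 immediate early genes had a median of 0.06 with 2 higher, Junb (0.35) and Nr4a1 (0.30), the 17 clock genes 0.06 with 3 higher, Nr1d1, Npas2 and Ciart, the 27 chromatin genes -0.02 with 1 higher, Tet2, and the 18 cholesterol synthesis genes 0.05 with 0.

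Markers of cell types and of neighboring regions varied between samples. The 13 striatal genes were all higher in CIE, with a median of 0.46, and 2 of them, Drd2 and Pde10a, had an unadjusted p under 0.05; their sum was 1169 to 3181 CPM in CIE and 854 to 2503 CPM in Air. The 16 oligodendrocyte genes had a median of -0.25, 15 of them lower and 0 at an unadjusted p under 0.05, and summed to 3676 to 6437 CPM in CIE and 3239 to 10409 CPM in Air. Medians were 0.20 for basolateral, 0.18 for central and -0.19 for medial amygdala, 0.06 for hypothalamus and -0.14 for thalamus. They were -0.02 for neurons, -0.08 for astrocytes, -0.09 for oligodendrocyte precursors, 0.06 for microglia, 0.14 for microglial activation, 0.02 for vascular cells, 0.25 for erythroid cells (3 genes tested) and 0.41 for leukocytes (3 genes tested). None of the genes in these lists passed the adjusted threshold.

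**Figure D4:**
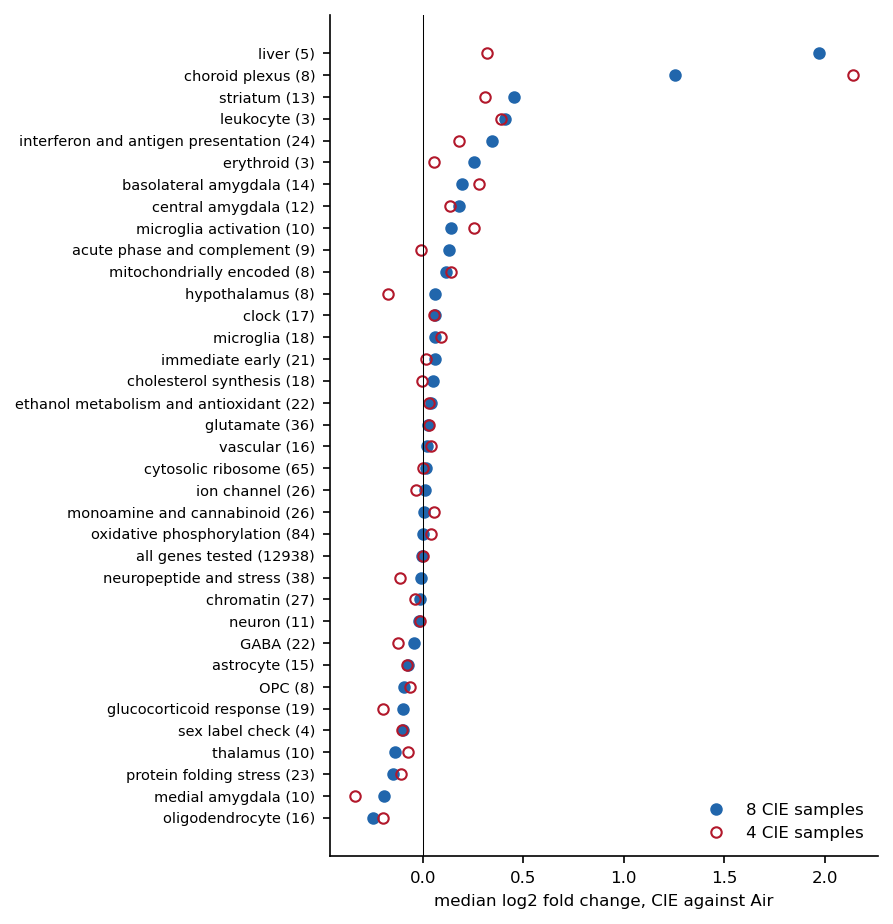
Median log2 fold change, CIE against Air, of each gene list with all 8 CIE samples (filled blue) and with the 4 CIE samples at or under 50 CPM of Alb (open red). The number of genes tested with all samples is in parentheses.

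The repeat kept CIE 5, 16, 18 and 20, the CIE samples at or under 50 CPM of Alb, against the same 10 Air samples. No gene passed the threshold in the repeat. Alb, Apoc1 and Apoa1 were near their Air values there, while Ttr, which is on the liver list and is also made by choroid plexus, was high in CIE 16 and 20. Because Alb chose the samples, liver genes are described in the repeat and not tested: Alb was 2.87 to 4.43 CPM in the 4 CIE samples and 1.44 to 4.39 CPM in Air. By the edgeR quasi-likelihood test 0 of 13290 genes (0%) had a Benjamini-Hochberg adjusted p under 0.05, with a smallest value of 0.650. DESeq2, limma voom and edgeR without a filter on low counts also called 0. At an unadjusted p under 0.05 there were 372 higher (2.80%) and 330 lower genes (2.48%), and the median over all genes was 0.00. Values of all 4 CIE samples lay above all of Air for 5 genes (0.0376%) and below all of Air for 20 (0.150%).

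In the repeat Kcnc4 was 79.2 to 87.2 CPM in CIE (log2 fold change -0.32) and Tollip 119 to 123 CPM (-0.24). Both lay below every Air sample, as the full set already showed for these 4 mice. N4bp1 was 78.2 to 91.9 CPM against 98.2 to 115 CPM in Air (-0.29), and Sclt1, which builds the base of the cilium, 16.8 to 23.3 against 23.1 to 30.9 CPM (-0.52), overlapping only in CIE 18. Higher values came from Tmem259, a membrane protein gene, at 45.5 to 66.8 against 33.1 to 47.8 CPM (0.50), and from the clock repressor Nr1d1 at 79.1 to 100 against 62.2 to 81.3 CPM (0.37). N4bp1, Sclt1, Tmem259 and Nr1d1 had an adjusted p of 0.650 by the edgeR quasi-likelihood test with Benjamini-Hochberg correction, and every other gene tested 0.865 or more. Of 8324 genes with a mean of at least 20 CPM, 15 lay below all of Air, among them Zfp667, Scrg1, Fgf9, Morc3, Ahsa2, Amz2 and Camta1, and 2 above, Hddc2 and Mier2.

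List by list, the repeat gave medians of -0.11 for protein folding (23 genes, 3 lower and 0 higher at an unadjusted p under 0.05), -0.20 for glucocorticoid response (19 genes, 3 lower), 0.18 for interferon and antigen presentation (26 genes, 3 higher), 0.14 for mitochondrially encoded genes (8 genes, 3 higher) and 2.14 for choroid plexus (12 genes, 10 higher). Over all genes of the repeat the shares at that p were 2.80% higher and 2.48% lower. The choroid plexus list summed to 10012 and 7661 CPM in CIE 16 and 20, and to 341 and 364 CPM in CIE 18 and 5. With all samples 8 of these 12 genes passed the filter. Hspa1b was 8.96 to 20.4 CPM in these 4 CIE samples (log2 fold change -1.32), Tsc22d3 68.4 to 119 CPM (-0.40) and Plin4 2.55 to 10.2 CPM (-1.27). B2m (0.18), H2-K1 (0.18) and H2-D1 (0.21) had smaller values than with all samples, and turned to -0.074, -0.28 and -0.047 when the samples with Ttr above 1000 CPM were left out as well, an alternative chosen after seeing the data that keeps 2 CIE and 8 Air samples. Mgst1 (0.19), Fmo5 (0.55) and Acsl1 (0.15) also had smaller fold changes than with all samples, whereas Brca2 (0.87) and Gldc (0.65) did not.

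Whether the CIE difference varied with sex or region was tested directly, with the same Air samples of male amygdala in each test. The region tests treat samples of the same mouse as separate. The median of Hspa1b was lower in CIE in all 3 male regions, and in female amygdala it was 8.16 CPM in CIE and 10.5 CPM in Air. No gene passed a test of the difference between sexes or regions. Sex by CIE gave 0 of 13158 genes (0%) at a Benjamini-Hochberg adjusted p under 0.05 by the edgeR quasi-likelihood test, with 340 higher (2.58%) and 219 lower (1.66%) in males at an unadjusted p under 0.05. Liver content differs between these groups: Alb was above 50 CPM in 4 of 8 CIE and 0 of 10 Air males and in 4 of 10 CIE and 3 of 8 Air females. Of the 27 liver genes tested for sex by CIE, 24 were among the 340, and without the high-Alb CIE samples of both sexes the counts were 217 higher and 170 lower. That alternative kept the 3 Air females with Alb above 50 CPM, so liver content still differed between the groups. Amygdala against hypothalamus gave 0 of 13778 (0%), with 209 higher (1.52%) and 216 lower (1.57%), and amygdala against prefrontal cortex 0 of 13579 (0%), with 253 higher (1.86%) and 230 lower (1.69%). DESeq2 also called 0 in each of the 3 tests. Among genes with an established name, the smallest p in each direction for sex came from Lamtor3 (difference of log2 fold changes 0.80), Gadd45a (0.98), Lin52 (-0.54) and Creld2 (-0.71). For hypothalamus it came from Plcd1 (0.84), Ccdc57 (0.54), Tollip (-0.23) and Sh2d3c (-0.54), and for prefrontal cortex from Ccdc80 (0.88), Numb (0.33), Chrnb2 (-0.39) and Inpp1 (-0.33).

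Side by side, the log2 fold change of Hspa1b was -1.41 in male amygdala, -1.65 in male hypothalamus, -1.06 in male prefrontal cortex and -0.13 in female amygdala, and that of Kcnc4 was -0.38, -0.03, -0.15 and -0.09. The difference between the sexes for Hspa1b was -1.28, with an adjusted p of 1.00 by the edgeR quasi-likelihood test with Benjamini-Hochberg correction. Taken alone by the edgeR quasi-likelihood test, female amygdala had 0 of 12335 genes (0%) past an adjusted p of 0.05 and 277 higher (2.25%) and 266 lower (2.16%) at an unadjusted p under 0.05. Male hypothalamus had 0 of 13102 (0%), with 537 higher (4.10%) and 451 lower (3.44%). Male prefrontal cortex had 1 of 12846 (0.00778%), the orexin gene Hcrt (log2 fold change 1.46), with 357 higher (2.78%) and 361 lower (2.81%). Hcrt is also on the list of hypothalamus markers, and where its reads came from was not tested. The 23 protein folding genes had medians of -0.12 in male hypothalamus, with 11 lower and 1 higher at an unadjusted p under 0.05, -0.11 in male prefrontal cortex, with 11 lower, and -0.04 in female amygdala, with 1 higher.

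**Figure D5:**
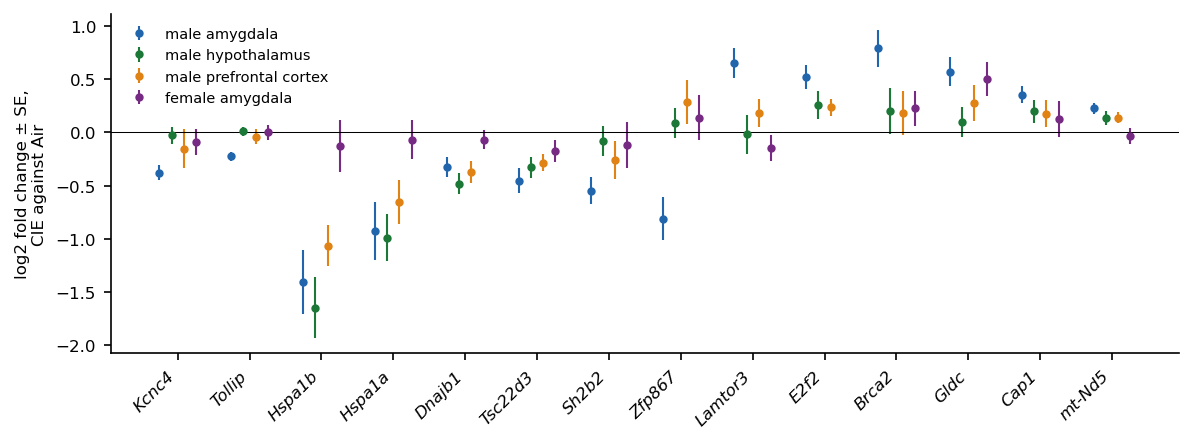
Log2 fold change with SE, CIE against Air, of genes named in the text, in male amygdala, hypothalamus and prefrontal cortex and in female amygdala. Genes not tested in a tissue have no point.

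These values have limits. Liver transcripts were high in 4 of the 8 CIE samples and in none of the Air samples, so in the full comparison liver content and treatment go together, and the repeat rests on 4 CIE mice. Choroid plexus markers were high in 5 samples, and striatal and oligodendrocyte markers varied; whether this reflects what each punch held was not tested. The labels give no batch, so batch was not modeled. Differences smaller than those the test can call at this depth and group size may exist, and protein, cell type and time course were not measured.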

How the data were processed

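Amygdala RNA of 8 CIE and 10 Air male mice was compared, with female amygdala, male hypothalamus and male prefrontal cortex (18 samples each) for tests of the difference between sexes and regions. Total RNA (300 ng) was made into TagSeq libraries and read as single ends of 100 bases. Per the submitters' processing notes, reads were aligned with Bowtie2, handled with SAMtools and counted with HTSeq on GRCm38 (mm10), and voom values were made with limma 3.42.2; versions of the first 3 tools are not stated. The authors deposited raw counts per gene for each sample, and deposited log2 values made by voom, which were used only as an alternative for male amygdala. In all, 90 count files were read, those of male blood for single values only; 63 files were not used, because they hold other tissues of females or the voom tables of other groups.

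The counts hold 55385 gene identifiers, 92 ERCC spike-ins and 5 summary lines; spike-ins and summary lines were left out. Summary lines held 28.4% to 30.3% of the reads of a CIE and 28.6% to 29.6% of an Air male amygdala sample. Names came from GENCODE M21 (54487 identifiers matched with version, 657 without version, 241 unmatched). Levels are CPM, counts-per-million of gene reads without further scaling; fold changes are from the fits. Replicates were checked for duplicates: none of the 73 pairs within a group was identical, and chi-square per degree of freedom ran from 1.68 to 12.1.

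Comparisons used edgeR 4.0.16 in R 4.3.3 (quasi-likelihood, TMM factors from 0.977 to 1.03, filterByExpr with a minimum count of 10 and total of 15), one tissue and sex per fit, with Benjamini-Hochberg correction at 0.05. SE was taken as the size of the log2 fold change over the square root of F. Sex by CIE and region by CIE were tested as interaction terms. The pipeline was tested on simulated data. Alternatives were DESeq2 1.42.0 and its size factors, limma 3.58.1 (voom on the counts, and the deposited log2 values), no scaling, other filters, robust edgeR, an adjusted p of 0.1, each sample left out, covariates for liver and oligodendrocyte content, other limits on Alb, and, chosen after seeing the data, leaving out samples with Ttr above 1000 CPM. Mouse numbers in the titles tie regions to animals, so mouse as replicate block was an alternative for the region tests, whose main fits have no block; CIE and Air mice of one region share no number and are not paired. Within-group deviations of the 2 regions of a mouse had a correlation of -0.03 to 0.34 (median 0.09) for hypothalamus and -0.19 to 0.36 (median 0.11) for prefrontal cortex.

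Members and gene lists were chosen with earlier results of these data known. Named genes are those of 35 lists; the 12 of smallest p in each direction in the full comparison and the repeat, since none passed; genes of at least 20 CPM whose CIE samples all lie outside the Air range, the 10 largest in each direction; the 2 of smallest p in each direction of each difference test; and label checks. Unnamed gene models were counted and not named. Some genes that were measured are not reported here.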

Additional observations from a re-analysis of the deposited data

Results flagged for a closer look

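For 64 genes of the comparisons and lists and for read depth, the highest or lowest sample of each group of 8 CIE and 10 Air male amygdala samples was compared with the rest. Chance alone sets about 1 in 20 groups apart, and here 12 of 130 groups held a sample far from the others, 11 in CIE and 1 in Air. CIE 2, the sample with the most Alb, accounted for 6: Apoa1 was 107 CPM there and 6.80 to 48.0 CPM in the other CIE samples, Mgst1 95.8 (13.6 to 46.7), Cat 147 (68.8 to 102), E2f2 78.6 (34.3 to 47.7), Iigp1 11.3 (3.10 to 6.23), and Nr1d1 was low at 51.5 CPM (79.1 to 100). Apoa1 is a liver gene.

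CIE 16 stood high for 3 genes: Manf at 98.5 CPM (63.3 to 75.7 in the other CIE samples), Xbp1 at 95.5 CPM (75.9 to 84.2) and Ifi27 at 123 CPM (35.8 to 74.8). The first 2 belong to the unfolded protein response. CIE 20 stood high for Gldc at 32.3 CPM (19.7 to 24.0), and CIE 3 for the striatal gene Drd2 at 29.2 CPM (6.80 to 17.3). In Air, sample 7 stood high for Plin4 at 32.9 CPM (6.11 to 19.7). The causes were not tested.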

How the results depend on the processing

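With all samples, the count of 0 genes at an adjusted p under 0.05 was kept in 10 of 12 alternatives other than leaving out a sample. Among these the alternative at an adjusted p of 0.1 is the main fit, read at a looser threshold. Without a filter on low counts edgeR called 114 genes, 111 higher and 3 lower; 100 of the 114 are too scarce to be tested under the filter and 26 are on the liver list. DESeq2 called 13, 10 higher and 3 lower. Leaving out 1 sample gave 0 to 2 genes: 1 without CIE 5, 2 without CIE 16, 2 without CIE 18 and 1 without CIE 20, always with Alb among them, and 0 without any of the other 14. CIE 5, 16, 18 and 20 are the CIE samples without high Alb, so a stronger Alb difference follows from which sample is left out. At an unadjusted p under 0.05 the higher and lower genes were 568 and 598, but 413 and 892 with no scaling beyond library size (the share that was higher went from 48.7% to 31.6%), 1343 and 843 without a filter, and 342 and 423 with the liver list as covariate.

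In the repeat 24 alternatives gave 0 genes at an adjusted p under 0.05. Among the 24 the alternative at an adjusted p of 0.1 is again the main fit, read at a looser threshold. Besides these, 2 other limits on Alb kept the same 14 samples and could not differ. At an unadjusted p under 0.05 its 372 higher and 330 lower genes became 274 and 491 with no scaling, 830 and 549 without a filter, 242 and 352 without CIE 20, and 487 and 500 without Air 15. The difference tests gave 0 in all alternatives run; without a filter their higher and lower genes at an unadjusted p under 0.05 were 832 and 584 for sex, 542 and 596 for hypothalamus and 740 and 507 for prefrontal cortex, and sex gave 217 and 170 without the CIE samples with high Alb. With mouse as replicate block in edgeR, amygdala against hypothalamus gave 0, with 257 higher and 239 lower at an unadjusted p under 0.05, and amygdala against prefrontal cortex 0, with 266 and 221; as a random effect in limma voom they gave 0, with 258 and 253, and 0, with 300 and 219.

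Of 64 named genes 62 kept their direction in all alternatives of the full comparison; with the liver list as covariate Apoc1 went to -0.42 and Apoa1 to -0.17. With that covariate 16 more kept their direction at a fold change smaller by more than 1.5 times on the log2 scale, among them Mgst1 (1.08 to 0.02), H2-K1 (0.40 to 0.11), B2m (0.31 to 0.13), Cat (0.38 to 0.19) and E2f2 (0.52 to 0.29), and without samples with Ttr above 1000 CPM 4 did. So did 2 with the deposited log2 values, 1 with the oligodendrocyte list as covariate, and 1 each without CIE 4, Air 7 or CIE 16. Of 35 named genes in the repeat 32 kept their direction in all alternatives. Without samples with Ttr above 1000 CPM, an alternative chosen after seeing the data that keeps 2 CIE and 8 Air samples, B2m went to -0.074, H2-K1 to -0.28 and H2-D1 to -0.047. Fold changes smaller by more than 1.5 times, with the direction kept, came from 5 genes in that alternative, 3 without CIE 16 and 3 without CIE 20. The causes were not tested. Across the 18 samples 26 of 31 liver genes were too scarce to pass the filter; what greater depth would add was not tested.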

Other observations

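Spike-in reads divide the samples. ERCC sequences made up 1.07% of the reads in CIE 2, 1.25% in CIE 20, 1.26% in Air 8 and 1.15% in Air 13 of male amygdala, and at most 0.0511% in the other 14 samples.

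Xist was 4.48 to 9.18 CPM in the 4 CIE male amygdala samples with Alb above 50 CPM and 0.329 to 1.28 CPM in the other 4. In hypothalamus it was 5.62 to 9.80 CPM in the same 4 mice and 0.615 to 1.75 CPM in the other CIE males, and in prefrontal cortex 4.74 to 14.0 and 0 to 2.08 CPM. In female amygdala 4 CIE and 3 Air samples had Alb above 50 CPM (79.8 to 160 CPM). Cyp2d9, a liver gene with higher levels in male mice that was chosen after its values were seen, was 4.44 to 13.8 CPM in those 7 female samples and at most 0.621 CPM in the other 11, beside 7.65 to 15.4 CPM in CIE 1 to 4 of male amygdala. Ddx3y, from the Y chromosome, was 0.456 to 2.94 CPM in the 7 female samples and at most 0.656 CPM in the other 11.

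Ttr was also measured outside the amygdala. In prefrontal cortex of males it was 94.1 to 125 CPM in CIE 1 to 4 and 114 to 172 CPM in the other 4 CIE males, beside 2.16 to 69.6 CPM in Air, with no overlap. In hypothalamus it was 106 to 128 and 125 to 147 CPM, beside 2.45 to 108 CPM in Air, where only Air 12 reached above a CIE mouse, CIE 4.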
